A study of Mus musculus with 48 samples.

Results

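NF-kappaB is a family of dimeric transcription factors that wait in the cytoplasm, bound by IkappaB proteins, until kinases mark those inhibitors for destruction. The released dimers enter the nucleus and turn on inflammatory genes, and among their targets are the genes of their own inhibitors, so that a signal is cut short by what it induces. In the lung, epithelial cells, endothelial cells, macrophages and recruited neutrophils all use this pathway in inflammation and injury. The 10 genes described here are the 5 Rel family subunits (Rela, Relb, Rel, Nfkb1 and Nfkb2) and 5 genes grouped as inhibitors (Nfkbia, Nfkbie, Nfkbiz, Bcl3 and Tnfaip3). Nfkbiz and Bcl3 encode nuclear IkappaB proteins, and the name of the group does not say that each member dampens the signal. The 10 genes were taken from the table of 47561 genes by symbol, and each symbol had 1 row.

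RNA from the lungs of 48 adult mice was sequenced, with 3 mice in each of 16 groups formed by strain, sex, injection and air. The strains were C3H/HeN (C3H) and C57Bl/6 (C57B, whose substrain is given differently in different sources), and males (M) and females (F) of each gave the names C3HM, C3HF, C57BM and C57BF. Each mouse had 1 intraperitoneal injection of saline or of 25 mg/kg aurothioglucose (ATG), a gold-containing drug known to block the enzyme thioredoxin reductase, and was then kept for 96 h in room air or in hyperoxia, meaning more than 95% oxygen. The series' design text mentions ATG for every group and no saline, whereas the sample labels give saline or ATG for each mouse, and all ATG comparisons rest on the sample labels. The labels name no transgene or deletion, and each library came from 1 mouse. Values are FPKM, fragment numbers scaled to transcript length and to the mapped fragments of the library. Levels can thus be compared between genes of the same lung. Between lungs, a level also shifts when abundant transcripts take up a different share of the library. The club cell gene Scgb1a1 made up a median of 18.1% of the FPKM sum in room air and 4.61% in hyperoxia. The sums of FPKM per lung ran from 510933 to 748290. The deposited values are not counts, the absolute depth is unknown, and low values put the lungs at 0.758 to 1.23 times their median depth, although only 28.5 to 36.0% of the low values fell on a shared step, so that these depths are rough. Since the RNA came from whole lung, more cells of a type and more RNA per cell cannot be told apart.

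The tissue label was borne out by lung markers. In room air with saline, the surfactant gene Sftpc had a median of 29210 FPKM and the club cell gene Scgb1a1 a median of 98460 FPKM over 12 lungs. The libraries named next are singled out because results rested on them. In C57BM 19 and C3HF 33, both saline lungs in hyperoxia, most of the 10 genes stood far above the other lungs of the same strain, sex, injection and air. The summed FPKM of 6 neutrophil markers reached 4863 and 6271. C57BM 19 stood apart from the males of its group more than from the C57BF saline lungs in hyperoxia. Those reached 55.4 FPKM of Bcl3, 22.4 of Nfkbiz, 63.5 of Nfkb1 and a neutrophil sum of 4130. C57BM 19 had 54.8, 19.1 and 96.5 FPKM of these genes. In C3HM 1 and C3HM 3, both saline lungs in room air, the ribosomal transcript Rn18s-rs5 stood at 25895 and 20766 FPKM, against a median of 6504 over the 24 lungs in room air, and their estimated depths were 0.758 and 0.818 times the median. Neither trait was theirs alone. C3HM 4, an ATG lung in room air, had 22813 FPKM of Rn18s-rs5. Depths were 0.779 in C57BF 40, 0.796 in C3HM 11, and 0.807 in both C57BM 14 and C3HF 36. Those lungs were not singled out. Many of the results that rest on these lungs are given with and without them.

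All 10 genes are protein-coding, and their positions are given here on GRCm38 (mm10) from GENCODE M21. Rela lies on chromosome 19 at 5637483-5648130 and Nfkb2 on the same chromosome at 46304320-46312385. Relb (19606217-19629438) and Bcl3 (19808462-19822770) are neighbours on chromosome 7. Rel is on chromosome 11 (23736847-23770970), Nfkb1 on chromosome 3 (135584655-135691547), Nfkbia on chromosome 12 (55489410-55492647), Nfkbie on chromosome 17 (45555703-45563169), Nfkbiz on chromosome 16 (55811375-55838899) and Tnfaip3 on chromosome 10 (19000910-19015657). At most 1.98% of the 30-base sequences in a gene's transcripts, the value for Relb, also occurred in transcripts of another gene. The library kit is described as directional but the strand setting of the counting is not given in the sources used here, so reads of Bcl3 and of the antisense gene Gm16174 (median 0.983 FPKM, highest 10.8) cannot be told apart with certainty, nor can those of Nfkb2 and Psd (highest 1.67 FPKM).

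Because several of these genes are described targets of NF-kappaB as well as parts of it, the start regions were searched for the 10-base NF-kappaB consensus on both strands. RefSeq windows on GRCm38.p6, from 250 bases before to 50 bases after the start, were at hand for 7 of the 10 genes (Bcl3, Tnfaip3, Rel, Nfkbia, Nfkbie, Rela and Nfkb2), with 10 windows among them, and not for Relb, Nfkb1 and Nfkbiz. A match stood in a window of 6 of the 7 genes, all but Rela. Counted by window, 8 of the 10 held a match, while 4.51% of 32851 windows of that length held one. The stretches below carry the matches in capitals, read 5′ to 3′ along the strand of the gene, and are shown because they place the pathway's own motif beside genes followed below. For Nfkbie, Nfkbia, Tnfaip3 and Rel the 130 bases before the start are given, and for Nfkb2 and Bcl3 only 30 bases around a match, with further matches in the Nfkb2 windows not printed.

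Nfkbie, chr17:45555570-45555699, + strand: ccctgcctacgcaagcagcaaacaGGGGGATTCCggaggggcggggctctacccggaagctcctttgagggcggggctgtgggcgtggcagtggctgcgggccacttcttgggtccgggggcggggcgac
Nfkbia, chr12:55492648-55492777, - strand: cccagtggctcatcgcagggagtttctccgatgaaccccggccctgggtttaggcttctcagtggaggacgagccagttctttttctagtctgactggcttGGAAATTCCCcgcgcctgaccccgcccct
Tnfaip3, chr10:19015411-19015540, - strand: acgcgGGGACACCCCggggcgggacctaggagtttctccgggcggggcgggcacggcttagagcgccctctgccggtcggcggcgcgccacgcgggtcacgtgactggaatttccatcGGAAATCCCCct
Rel, chr11:23770970-23771099, - strand: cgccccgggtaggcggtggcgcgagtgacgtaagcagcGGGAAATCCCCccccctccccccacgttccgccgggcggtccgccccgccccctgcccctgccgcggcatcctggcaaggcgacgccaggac
Nfkb2, chr19:46304688-46304717, + strand: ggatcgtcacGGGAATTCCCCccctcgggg
Nfkb2, chr19:46304716-46304745, + strand: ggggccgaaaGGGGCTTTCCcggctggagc
Bcl3, chr7:19822734-19822763, - strand: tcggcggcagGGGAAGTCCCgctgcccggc

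A run of 11 capitals holds overlapping matches on opposite strands. A match is a description of the sequence and was not tested for binding in these lungs.

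In room air with saline the 10 genes spread over a wide range of levels. Over 12 lungs, Nfkbia, the IkappaB-alpha gene, had the highest median at 87.3 FPKM, followed by the subunit genes Nfkb1 (44.8 FPKM) and Rela (41.9 FPKM), whose dimer is the common form of the factor. Bcl3 (12.6 FPKM), Nfkb2 (12.3 FPKM) and Relb (10.3 FPKM) formed a middle group whose ranges overlapped. Tnfaip3 (5.10 FPKM), Nfkbie (4.70 FPKM), Nfkbiz (3.95 FPKM) and Rel (2.10 FPKM) were lowest. In this order each gene's range overlapped that of the next apart from the step from Nfkbia to Nfkb1 and that from Rela to Bcl3, while Tnfaip3 (3.86 to 8.55 FPKM) and Rel (1.21 to 2.72 FPKM) did not overlap. All 10 genes were above 0 in every lung and 9 of them were at or above 1 FPKM in every lung, the exception being Rel with 0.996 FPKM in 1 lung, and all 10 entered every test.

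**Figure D1:**
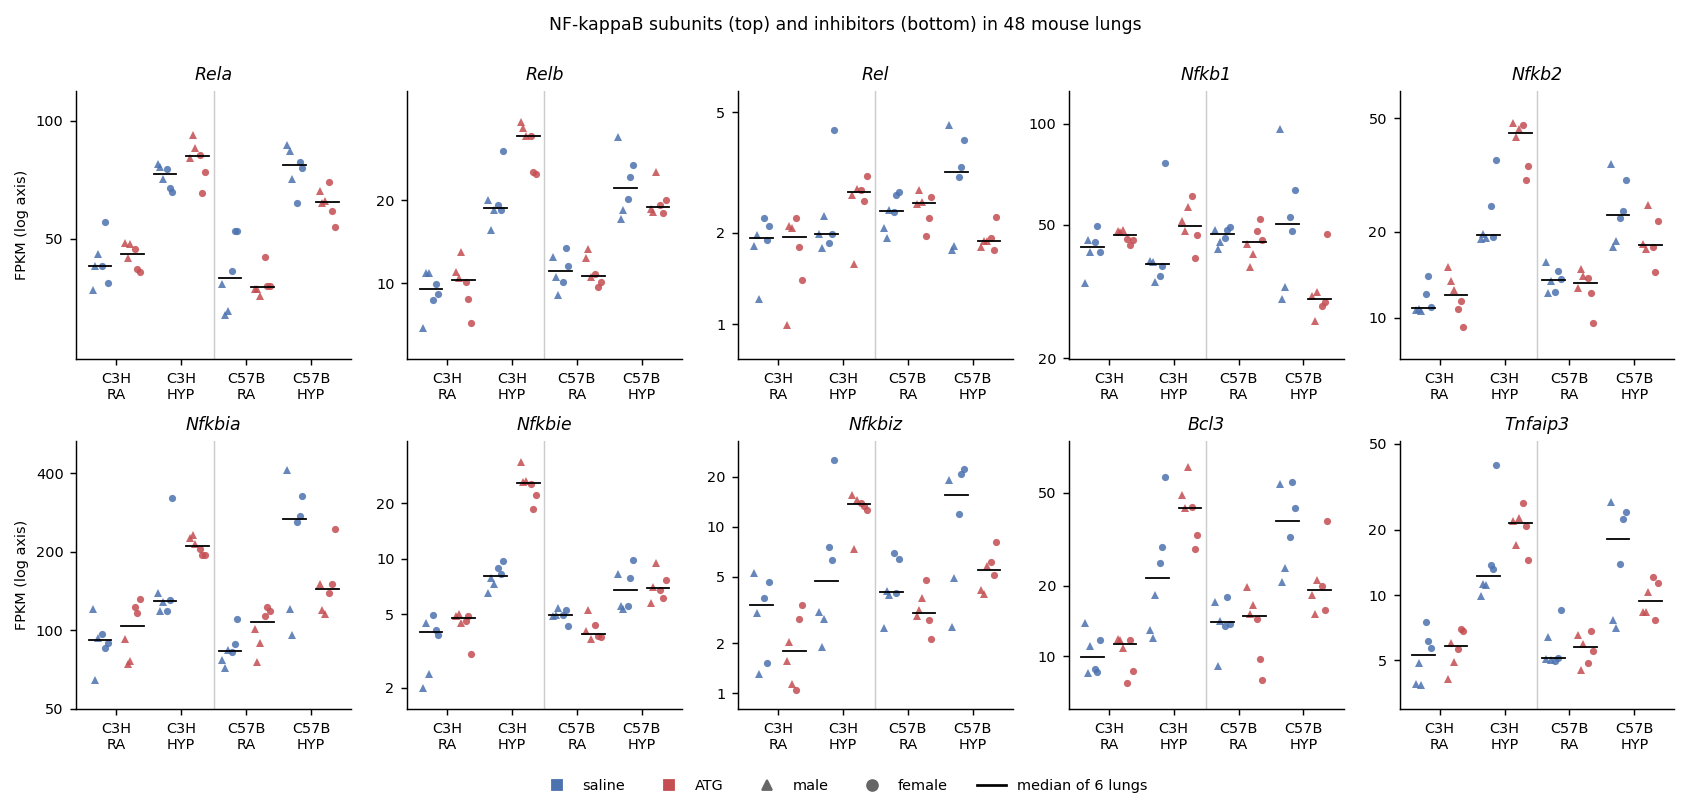
FPKM on a log axis of each gene in 48 lungs, by strain and air (RA, room air; HYP, hyperoxia), with saline in blue and ATG in red, males as triangles, females as circles and a bar at the median of 6 lungs. Rela, Relb and Nfkb2 in saline lungs do not overlap between airs, and the 6 ATG lungs of C3H in hyperoxia stand alone for Nfkbie, between 18.6 and 33.6 FPKM.

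The effect of hyperoxia was tested in the 24 saline mice with limma on log2(FPKM + 1), averaged over the 4 groups of strain and sex, and all fold changes below are on that scale, which understates the change of low genes. Hyperoxia was accompanied by higher levels of 8 of the 10 genes at an adjusted p under 0.05, and none was lower. The change was wide in this tissue, with 60.1% of 16321 genes past the threshold and 31.8% higher, so 8 of 10 is to be read against those shares. The median difference of the 10 genes was 0.87, against 0.01 over all genes tested.

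Among the subunits, Rela, the main activating subunit, ran from 31.9 to 55.1 FPKM in room air (median 41.9) and from 61.5 to 87.0 FPKM in hyperoxia (median 75.7). The 12 lungs in each air did not overlap, and the difference was 0.81 ± 0.07 (SE) on the log2 scale, or 1.75-fold (limma, adjusted p = 7.8e-09). Relb, the partner of the Nfkb2 product in the alternative pathway, ran from 6.87 to 13.4 FPKM in room air (median 10.3) and from 15.6 to 33.9 FPKM in hyperoxia (median 19.7). Its lungs did not overlap either, with a difference of 1.00 ± 0.12 (adjusted p = 3.4e-07). Nfkb2 ran from 10.6 to 15.7 FPKM in room air (median 12.3) and from 17.7 to 35.8 FPKM in hyperoxia (median 21.1), again without overlap and with a difference of 0.83 ± 0.11 (adjusted p = 1.4e-06).

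The other subunit genes, Rel and Nfkb1, did not pass the test. Rel, a subunit best known from lymphocytes, had medians of 2.10 FPKM in room air and 2.13 FPKM in hyperoxia, a fitted difference of 0.22 with a 95% confidence interval from -0.03 to 0.47 (adjusted p = 0.13). The difference of Rel was 0.14 without C57BM 19, and its lowest value over 30 alternatives was 0.06. Nfkb1, the source of the p50 subunit, had a median of 44.8 FPKM in room air and 38.7 FPKM in hyperoxia, but its hyperoxia values spread from 30.1 to 96.5 FPKM where those in room air stayed between 33.6 and 49.5. The fitted difference of Nfkb1 was 0.04, with an interval from -0.28 to 0.36 (adjusted p = 0.84). The 2 highest Nfkb1 values, 96.5 FPKM in C57BM 19 and 76.4 FPKM in C3HF 33, belong to the lungs that stand apart. Without them the fitted difference of Nfkb1 was -0.18 on the log2 scale (adjusted p = 0.023, the only call among 30 alternatives for this gene, whose adjusted p otherwise ran up to 0.99). Then 9 genes of the 10 passed, Rel still missing it (adjusted p = 0.50). Since those 2 lungs were picked for high values of these same genes, leaving them out lowers the hyperoxia mean by construction. The Nfkb1 call without them is therefore no test of a fall in hyperoxia.

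All 5 genes grouped as inhibitors were higher. Tnfaip3, which encodes the ubiquitin-editing enzyme A20, ran from 3.86 to 8.55 FPKM in room air (median 5.10) and from 7.05 to 39.6 FPKM in hyperoxia (median 13.5), with the largest difference of the 10 genes, 1.29 ± 0.20 (adjusted p = 1.1e-05). Bcl3, a nuclear IkappaB protein that joins p50 and p52 dimers on DNA, ran from 8.47 to 17.8 FPKM in room air (median 12.6) and from 11.9 to 58.6 FPKM in hyperoxia (median 27.1), a difference of 1.18 ± 0.17 (adjusted p = 4.6e-06). Both genes were higher in most hyperoxia lungs, and the lowest of these overlapped the highest in room air.

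Nfkbia ran from 64.8 to 121 FPKM in room air (median 87.3) and from 96.0 to 411 FPKM in hyperoxia (median 135), a difference of 1.03 ± 0.19 (adjusted p = 0.00013). Nfkbiz, another nuclear IkappaB protein, ran from 1.31 to 6.94 FPKM in room air (median 3.95) and from 1.90 to 25.4 FPKM in hyperoxia (median 6.96), a difference of 0.92 ± 0.27 (adjusted p = 0.0057). Nfkbie, which encodes the cytoplasmic inhibitor IkappaB-epsilon, ran from 1.99 to 5.38 FPKM in room air (median 4.70) and from 5.33 to 9.91 FPKM in hyperoxia (median 7.91), a difference of 0.71 ± 0.10 (adjusted p = 8.3e-06). All 3 overlapped between airs, and of the 5 inhibitors Nfkbiz had the widest standard error and Nfkbie the narrowest. Without C57BM 19 and C3HF 33 all 5 passed, at 1.02 for Tnfaip3, 0.99 for Bcl3, 0.76 for Nfkbia, 0.65 for Nfkbie and 0.59 for Nfkbiz. Without C3HM 1 and C3HM 3 all 5 passed as well, and Nfkbie, whose lowest values of 1.99 and 2.38 FPKM are in those lungs, stood at 0.58.

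**Figure D2:**
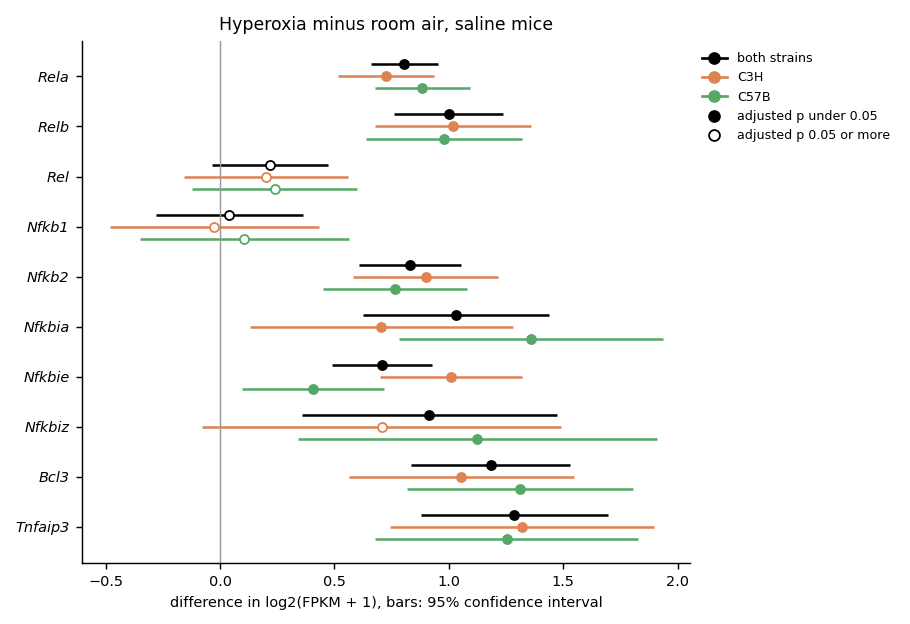
Difference in log2(FPKM + 1) between hyperoxia and room air in saline mice for each gene, over both strains (black), in C3H (orange) and in C57B (green), with 95% confidence intervals and filled points where the adjusted p was under 0.05. Every filled point lies above 0, and the points for Rel and Nfkb1 over both strains are open.

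Within C3H, 7 of the 10 genes were higher in hyperoxia, where 25.3% of all genes were higher and 37.8% passed in either direction. Within C57B, 8 were higher, where 25.5% of all genes were higher and 55.5% passed in either direction. These were the same 3 subunits, Rela, Relb and Nfkb2, in both strains, with differences of 0.73, 1.02 and 0.90 in C3H and 0.88, 0.98 and 0.77 in C57B. The inhibitors called in both were Tnfaip3, Bcl3, Nfkbie and Nfkbia, although Nfkbia in C3H lay at the threshold (0.70 ± 0.28, adjusted p = 0.05 as rounded) and stayed past it in 5 of 18 alternatives. Nfkbiz differed by 0.71 in C3H (adjusted p = 0.15) and by 1.12 in C57B (adjusted p = 0.016). Its difference in C3H was 0.42 (adjusted p = 0.39) without C3HF 33. In C57B, the Nfkbiz call was lost without C57BM 19 (adjusted p = 0.055), and the Nfkbie call (0.41, adjusted p = 0.026) was lost in 4 of 17 alternatives, namely without C57BF 45 (adjusted p = 0.083), without C57BF 39 (adjusted p = 0.058), without C57BM 19 (adjusted p = 0.078) and without C57BM 19 and C3HF 33 together (adjusted p = 0.082).

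Whether the strains responded differently was tested as an interaction in the same mice. None of the 10 genes passed, where 11.5% of all genes did. The gene nearest to a difference was Nfkbie, which differed by 1.01 in C3H and 0.41 in C57B, an excess in C3H of 0.61 with an interval from 0.17 to 1.04 (adjusted p = 0.066). This value moved with the lungs left out. With single lungs left out it ran from 0.51 without C57BF 43 to 0.74 (adjusted p = 0.0081) without C3HM 2. It was 0.34 (adjusted p = 0.30) without C3HM 1 and C3HM 3 together, with adjusted p from 0.0081 to 0.30 over 30 alternatives. Within hyperoxia itself, where 27.2% of genes differed between strains, Bcl3 was the member past the threshold. Bcl3 ran from 11.9 to 58.6 FPKM in C3H (median 21.6) and from 20.9 to 55.4 FPKM in C57B (median 37.8), lower in C3H by -0.66 (adjusted p = 0.043), and was past the threshold in 9 of 17 alternatives, with adjusted p from 0.0077 to 0.14.

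The effect of hyperoxia by sex was tested in the same way, and again none of the 10 genes passed, where 0.0368% of all genes (6 genes) did. The members nearest to a difference were Rela, at 0.44 (effect in males minus effect in females, interval from 0.14 to 0.73, adjusted p = 0.17), Bcl3, at -0.86 (from -1.56 to -0.17, adjusted p = 0.20) and Nfkbiz, at -1.21 (from -2.32 to -0.10, adjusted p = 0.25). Without C57BM 19, Bcl3 and Nfkbiz passed, at -1.07 and -1.56. The count of all genes depended on single lungs and rose to 1270 genes without C3HM 2 and to 627 genes without C57BM 19 and C3HF 33. In room air with saline, none of the 10 genes differed between strains, where 11.8% of genes did, and none differed between sexes, where 0.669% did (104 genes, a count that ran from 20 to 3640 when single lungs were left out, highest without C3HM 2). Nfkbie was lower in C3H than in C57B by -0.41 (adjusted p = 0.10), which became -0.54 (adjusted p = 0.0040) without C3HM 2 and -0.15 (adjusted p = 0.52) without C3HM 1 and C3HM 3. Between sexes Nfkbie differed by -0.21 (males minus females, adjusted p = 0.40), which became -0.34 (adjusted p = 0.037) without C3HM 2 and 0.05 (adjusted p = 0.87) without C3HM 1 and C3HM 3. Rela differed by -0.30 with an interval from -0.55 to -0.05 (adjusted p = 0.16), and Rela was past the threshold in 1 of 17 alternatives, the fit of all 48 mice.

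In room air, averaged over strain and sex, 0.0185% of 16228 genes (3 genes) passed the threshold for ATG and none of the 10 did. Within the 4 groups of strain and sex, the 3 ATG lungs did not overlap the 3 saline lungs in 5 of 40 cases (12.5%), all higher with ATG, against 9.85% over all genes tested, a share near that of the background. The cases were Nfkbia in C3HF and C57BF, Nfkb1 and Nfkb2 in C3HM, and Rel in C57BM. The summed neutrophil markers of C57BM in room air were 698, 569 and 775 FPKM with saline and 1574, 1806 and 3629 FPKM with ATG. These differences were not tested within their groups. For Nfkbie the ATG lungs in room air ran from 3.07 to 5.01 FPKM in C3H and from 3.69 to 5.25 FPKM in C57B, against saline ranges of 1.99 to 4.95 and 4.35 to 5.38 FPKM. The medians went from 4.00 with saline to 4.75 with ATG in C3H and from 4.99 to 3.94 in C57B, where 4 of the 6 ATG lungs lay below all saline lungs, and a difference between strains in room air was not tested. Averaged over strains the fitted difference was 0.03, with an interval from -0.17 to 0.23 (adjusted p = 0.95). The median difference was 0.01 both over the 10 genes and over all genes tested.

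In hyperoxia 5.47% of 15860 genes passed the threshold for ATG, and among the 10 genes this was Nfkbie, higher by 0.77 ± 0.10, or 1.71-fold (limma, adjusted p = 0.00052). The difference between the ATG effect in hyperoxia and that in room air, for which 2.77% of genes passed, was 0.74 for Nfkbie (adjusted p = 0.0028) and no other member passed (adjusted p of 0.27 or more). The Nfkbie call held in all 29 alternatives for hyperoxia, with adjusted p up to 0.0022, and in all 52 for the difference between airs, with adjusted p up to 0.0079.

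The lungs behind that average came from 1 strain. In C3H, the saline lungs in hyperoxia had Nfkbie at 6.56, 7.90 and 7.34 FPKM in males and 8.87, 8.30 and 9.72 FPKM in females. The ATG lungs of the same strain had 33.6, 26.0 and 26.4 FPKM in males and 25.6, 18.6 and 22.2 FPKM in females. All 6 ATG lungs therefore lay above all 6 saline lungs, and above each of the other 42 lungs of the study, the highest of which had 9.91 FPKM. In C57B, the ATG lungs in hyperoxia had 5.79, 7.07 and 9.47 FPKM in males and 6.75, 6.15 and 7.64 FPKM in females, inside the saline range of 5.33 to 9.91 FPKM.

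That contrast led to 3 comparisons added after the values had been seen, namely ATG against saline in hyperoxia within each strain and the difference between them, so their p-values describe a pattern already noticed. The comparisons of ATG in hyperoxia share their saline lungs with the comparisons of hyperoxia above. In C3H, 2.65% of genes passed and 3 of the 10 did, all higher, namely Nfkbie by 1.52 ± 0.14 (2.87-fold, adjusted p = 5.4e-06), Nfkb2 by 0.85 ± 0.17 (1.80-fold, adjusted p = 0.010) and Relb by 0.65 ± 0.15 (1.57-fold, adjusted p = 0.025). The Relb call was lost in 6 of 17 alternatives, with an adjusted p up to 0.082 without C3HF 32, and the other calls in none. The C3H count of 420 genes ran from 166 without C3HF 32 to 861 without C3HF 33, with 2 to 5 members over the lungs left out. In C57B, 0.864% of genes passed and none of the 10 did, with differences of 0.03 for Nfkbie, -0.33 for Nfkb2 and -0.20 for Relb. Without C57BM 19 these differences were 0.115, -0.18 and -0.05. The C57B count of 137 genes ran from 3 without C57BM 19 to 545 without C57BM 21, where 1 member passed, and was 0 without C57BM 19 and C3HF 33 together. The interval for Nfkbie in C57B ran from -0.26 to 0.31, below the whole interval in C3H, from 1.23 to 1.81.

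Nfkb2 in C3H hyperoxia had 18.9, 19.7 and 19.0 FPKM in saline males and 24.5, 19.2 and 35.8 FPKM in saline females, the last in C3HF 33. With ATG it had 48.1, 42.8 and 45.9 FPKM in males and 47.2, 30.5 and 34.0 FPKM in females. The male lungs with and without ATG were far apart, and among females the ATG values of 30.5 and 34.0 FPKM lay below that of C3HF 33. Relb had 20.1, 15.6 and 18.3 FPKM in saline males and 19.2, 18.3 and 30.1 FPKM in saline females, against 38.4, 36.5 and 34.2 FPKM in ATG males and 34.1, 25.3 and 24.8 FPKM in ATG females. Here too the single overlap came from C3HF 33.

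Bcl3 showed the widest contrast between strains after Nfkbiz. In C3H hyperoxia it had 12.9, 11.9 and 18.2 FPKM in saline males and 25.0, 29.2 and 58.6 FPKM in saline females, against 48.9, 43.1 and 64.3 FPKM in ATG males and 43.3, 28.7 and 33.1 FPKM in ATG females. In C57B it had 54.8, 20.9 and 23.9 FPKM in saline males and 32.5, 55.4 and 43.1 FPKM in saline females, against 18.3, 15.2 and 21.2 FPKM in ATG males and 20.0, 15.8 and 37.8 FPKM in ATG females. Neither strain passed alone, with a difference of 0.89 in C3H (adjusted p = 0.065) and -0.79 in C57B (adjusted p = 0.11).

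**Figure D3:**
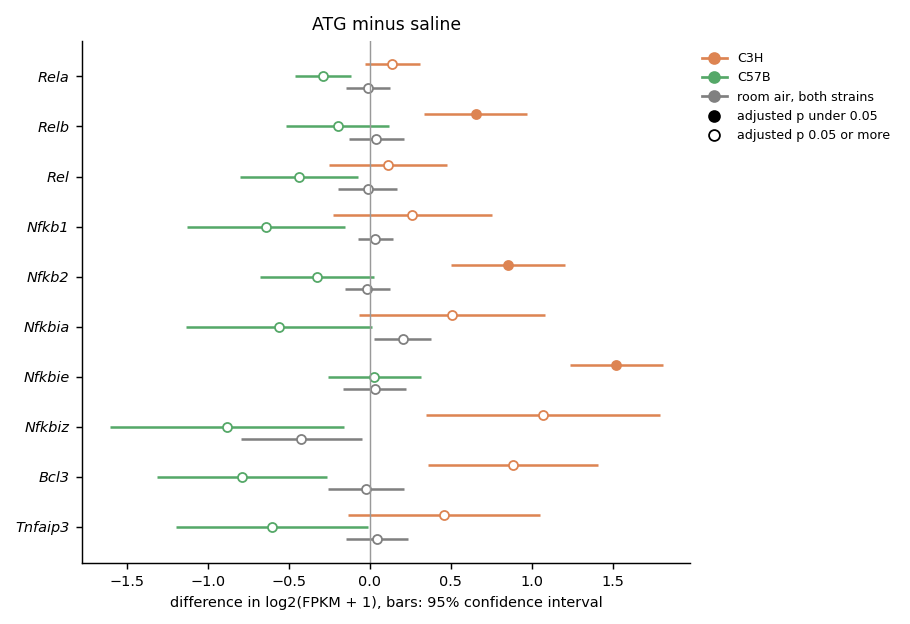
Difference in log2(FPKM + 1) between ATG and saline for each gene, in hyperoxia in C3H (orange) and in C57B (green) and in room air over both strains (grey), with 95% confidence intervals and filled points where the adjusted p was under 0.05. Filled points are Relb, Nfkb2 and Nfkbie in C3H, and in C57B 9 of 10 points lie below 0 without passing the test.

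For the difference between the strains' ATG effects in hyperoxia, 0.416% of genes passed (66 of 15860), and 3 of the 10 did. These were Nfkbie (1.49 ± 0.19, adjusted p = 0.0019), Nfkb2 (1.18 ± 0.24, adjusted p = 0.030) and Bcl3 (1.68 ± 0.36, adjusted p = 0.040). All 10 differences were positive, with a median of 1.07 against -0.05 over all genes. The values that did not pass ran from 0.43 for Rela to 1.95 for Nfkbiz (adjusted p = 0.11 and 0.094). Over the alternatives the Nfkbie call held in 29 of 29, with adjusted p up to 0.0068, that of Nfkb2 in 16 and that of Bcl3 in 11, with adjusted p up to 0.073 and 0.096.

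The count was larger without the lungs that stand apart. Without C57BM 19 and C3HF 33 the number past the threshold for the strain difference was 8 of 10, all but Rela and Rel, in place of 3, and the number in C3H was 8 in place of 3. In C57B it was 0 with and without them. Since those 2 lungs were picked for high values of these same genes, leaving out C3HF 33 lowers the saline mean in C3H by construction.

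Neutrophil markers moved with most of the 10 genes in hyperoxia. All 6 markers (S100a8, S100a9, Retnlg, Csf3r, Cxcr2 and Ly6g) were higher in hyperoxia over both strains, but 1 of 6 was called within C3H and 4 of 6 within C57B. In room air with saline their summed FPKM, led by S100a9, ran from 135 to 312 in C3H (median 188) and from 181 to 775 in C57B (median 461). In hyperoxia the medians were 206 and 3061, and C57BM 20 and C57BM 21, at 281 and 161, lay below all 3 C57BM saline lungs in room air. The sum ran from 161 to 4863 in C57B saline lungs and from 178 to 6271 in C3H saline lungs in hyperoxia. With ATG it ran from 232 to 1075 in C57B and from 158 to 2887 in C3H. The median over both sexes thus went from 206 to 754 in C3H and from 3061 to 386 in C57B, in opposite directions as for most of the 10 genes. None of the 6 passed the ATG test in either strain. These medians hide a split by sex. C3H males had 190, 178 and 222 with saline and 752, 158 and 756 with ATG. C3H females had 180, 1477 and 6271 with saline and 2887, 1026 and 607 with ATG. C57B males had 4863, 281 and 161 with saline and 375, 232 and 396 with ATG. C57B females had 3972, 2149 and 4130 with saline and 513, 337 and 1075 with ATG. No marker was at 0 in all lungs. Over the 24 lungs in hyperoxia, Pearson's r with the summed neutrophil markers was 0.87 for Rel, 0.82 for Nfkbiz, 0.81 for Nfkbia, 0.78 for Nfkb1 and 0.76 for Tnfaip3. It was 0.71 for Bcl3, 0.47 for Relb, 0.43 for Nfkb2, 0.14 for Nfkbie and -0.05 for Rela. With each lung set against the mean of its own group, r was higher for the genes called with ATG in C3H, at 0.74 for Relb, 0.72 for Nfkb2 and 0.47 for Nfkbie, was 0.77 to 0.86 for Rel, Nfkb1, Nfkbia, Nfkbiz, Bcl3 and Tnfaip3, and was -0.06 for Rela. These are descriptions over lungs that share groups, and the part of neutrophils in the levels was not tested.

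The lungs at the ends of the marker range were as follows. C3HM 11, an ATG lung in hyperoxia, had 26.0 FPKM of Nfkbie with a neutrophil sum of 158, the lowest of the 24 lungs, while C3HF 33, with the highest sum at 6271, had 9.72 FPKM, the highest of the C3H saline lungs. For Nfkb2 the same lungs had 42.8 and 35.8 FPKM, the latter being the highest of the saline lungs in hyperoxia and above 2 of the C3H lungs with ATG. Markers of alveolar macrophages moved with ATG in C3H as well. Of 5 tested, 4 were lower with ATG in C3H hyperoxia, among them Siglecf (-1.27, adjusted p = 0.00036), Chil3 (-1.54, adjusted p = 0.012) and Mrc1 (-0.60, adjusted p = 0.031). Among all genes, 1.05% were lower in that comparison. Over the 24 lungs in hyperoxia, r with the summed alveolar macrophage markers was -0.78 for Nfkbie, -0.60 for Nfkb2, -0.55 for Rela and -0.48 for Relb, and within groups it was -0.05, 0.13, -0.30 and 0.09. The summed FPKM of these markers, led by Chil3, ran in C3H hyperoxia from 232 to 717 with saline and from 81.2 to 417 with ATG, and in C57B from 709 to 1756 and from 660 to 1659, and their part in the Nfkbie result was not tested. The counts that follow are to be read against 31.8% of all genes higher and 28.3% lower in hyperoxia. T cell markers (0 higher and 6 lower of 6), B cell markers (0 and 4 of 5) and club cell markers (0 and 3 of 3) were lower in hyperoxia, and the 4 cardiac muscle markers, known from heart and pulmonary vein, were mostly lower too (3 of 4). Alveolar type 2 markers (1 higher and 4 lower of 5) and alveolar type 1 markers (0 and 3 of 4) were lower for the most part. Endothelial markers (1 and 2 of 5) and monocyte markers (2 and 1 of 4) were mixed. Alveolar macrophage markers (4 and 1 of 5) were higher for the most part, with a median difference of 0.74. Their sum in saline lungs in room air ran from 99.3 to 214 in C3H and from 138 to 434 in C57B. Neither range overlapped that of the same strain in hyperoxia.

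**Figure D4:**
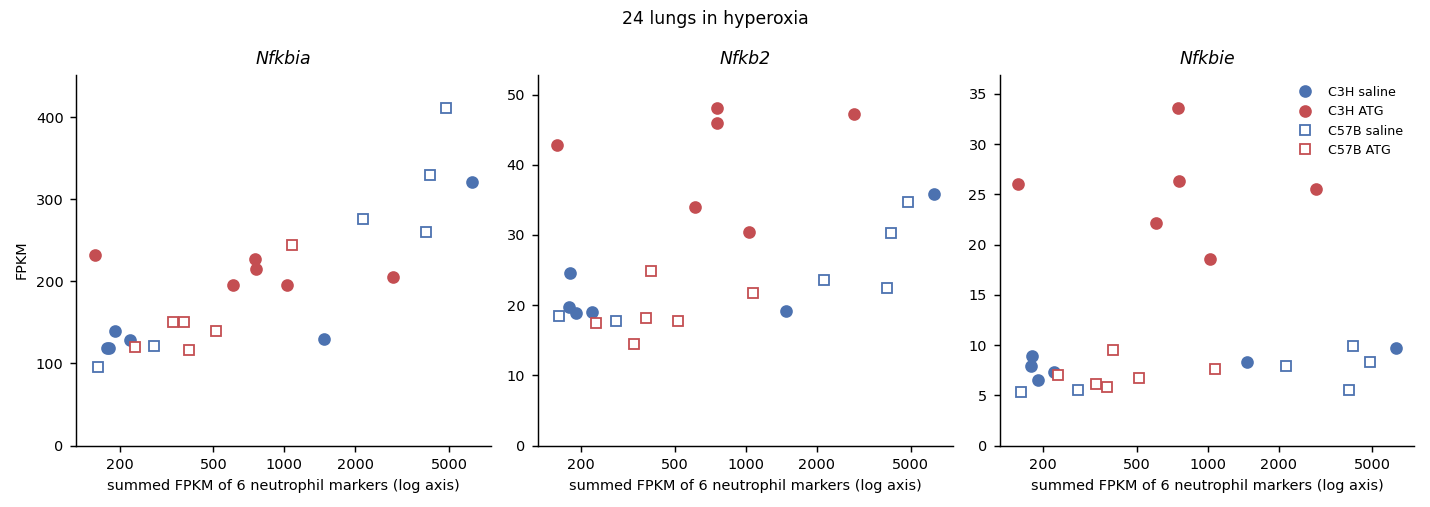
FPKM of Nfkbia, Nfkb2 and Nfkbie against the summed FPKM of 6 neutrophil markers (log axis) in the 24 lungs in hyperoxia, with C3H filled, C57B open, saline blue and ATG red. Nfkbia rises with the marker sum (r = 0.81), while the C3H lungs with ATG stay between 18.6 and 33.6 FPKM of Nfkbie at sums from 158 to 2887.

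The 10 genes also moved with each other. Over the 45 pairs, the median Pearson r of log2(FPKM + 1) was 0.72 over 48 lungs, 0.74 over the 24 lungs in hyperoxia and 0.10 over the 24 in room air. It stayed at 0.80 in hyperoxia when each lung was set against the mean of its own group, so lungs of 1 group differed together in most of these genes. Rela was the exception, with within-group r between -0.0045 (Rel) and 0.32 (Nfkbie). By r over all 48 lungs, the gene most like each member among 16994 genes was Nfkb2 for both Relb (r = 0.95) and Nfkbie (r = 0.92), and Relb for Nfkb2. It was Icam1, an adhesion molecule, for Rela (r = 0.94), the chemokine gene Cxcl1 for Nfkbia (r = 0.92) and Tnfaip3 (r = 0.93), and Myd88, the adaptor of Toll-like receptors, for Bcl3 (r = 0.93). Zc3h12a, which encodes an RNase, was closest to Nfkbiz (r = 0.90), Slfn1 to Rel (r = 0.85) and Tgfb1 to Nfkb1 (r = 0.80). These values span both airs, so they include any shared difference between airs, which was not called for Rel and Nfkb1.

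The wider pathway was followed in 60 listed genes, of which 55 could be tested. In hyperoxia 35 were higher and 8 lower, with a median difference of 0.50, against 31.8% of all genes higher and a median of 0.01. The groups within this list are small, and counts such as 4 of 8 are to be read against the same share. Among receptors, 6 of 8 were higher, including Ltbr, the lymphotoxin receptor that feeds the alternative pathway (0.84, adjusted p = 7.7e-10), Tnfrsf1a (0.84, adjusted p = 1.3e-08) and Tlr4 (1.10, adjusted p = 9.1e-08). The receptor Tnfrsf13c, known from B cells, was lower (-0.93, adjusted p = 6.6e-07). Of the ligands, 1 of 5 was higher (Tnf, 0.52, adjusted p = 0.0225) and 2 were lower, Ltb (-1.48, adjusted p = 4.0e-07) and Tnfsf13b (-0.96, adjusted p = 1.2e-05). T and B cell markers were lower in the same lungs, and their part in these falls was not tested.

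Between receptor and inhibitor, 4 of 8 kinases were higher and none lower, among them Chuk, which encodes IKK-alpha (0.60, adjusted p = 1.7e-05), Tab2 (0.54, adjusted p = 4.8e-08) and Tbk1 (0.40, adjusted p = 3.4e-05). Adaptors and ubiquitin ligases were mixed, with 4 of 7 higher, such as Traf6 (0.72, adjusted p = 1.1e-07) and Ripk1 (0.76, adjusted p = 2.2e-06), and 2 lower, Tradd (-0.56, adjusted p = 3.5e-06) and Traf5 (-0.92, adjusted p = 3.6e-06). Among the partners of A20 and other deubiquitinases, 6 of 8 were higher, including Tnip1 (1.09, adjusted p = 8.8e-05), Tnip2 (0.52, adjusted p = 1.5e-05) and Cyld (0.46, adjusted p = 8.9e-05). Of the remaining IkappaB genes, 1 of 2 was higher, Nfkbib (0.68, adjusted p = 1.4e-06).

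Of 17 described targets of NF-kappaB, 13 were higher in hyperoxia and 3 lower. Saa3, an acute-phase gene, went from a median of 8.66 to 188 FPKM (4.64, adjusted p = 1.1e-08), Ccl20 from 0.348 to 8.50 FPKM (2.71, adjusted p = 2.5e-09) and Ptgs2, which encodes cyclooxygenase-2, from 4.67 to 23.0 FPKM (2.15, adjusted p = 1.7e-08). Traf1 (-1.40, adjusted p = 8.7e-10), Irf1 (-0.74, adjusted p = 8.5e-08) and Cd83 (-0.55, adjusted p = 0.0013) were lower. Further lists moved in the same comparison. All 6 immediate early genes were higher, led by Atf3 (2.22, adjusted p = 6.2e-09), and so were all 6 glucocorticoid-responsive genes tested, led by Fkbp5, from 3.46 to 52.9 FPKM (3.29, adjusted p = 3.4e-12). Of 8 circadian clock genes 4 were higher and 2 lower.

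With ATG in C3H hyperoxia, 7 of the 55 further pathway genes were higher and none lower, against 1.60% of all genes higher and 1.05% lower. Of the 17 described targets 5 were higher, including Saa3, from a median of 188 to 3738 FPKM (4.20, adjusted p = 0.0026), Lcn2, which encodes an iron-sequestering protein, from 326 to 1493 FPKM (2.03, adjusted p = 0.012), and Icam1, from 429 to 671 FPKM (0.58, adjusted p = 0.016). Ccl2 and Sod2 completed the 5, and the A20 partner Tnip3 (1.35, adjusted p = 0.024) and the adaptor Traf2 (0.31, adjusted p = 0.042) were the others. In C57B, where 0.864% of all genes passed, 1 of the 55 did, Traf6, which was lower (-0.46, adjusted p = 0.027). The strain difference, for which 0.416% of all genes passed, did so for Saa3 (5.26, adjusted p = 0.014) and Lcn2 (2.70, adjusted p = 0.047). Among glucocorticoid-responsive genes, Per1 (-0.84, adjusted p = 0.0074) and Klf9 (-0.64, adjusted p = 0.024) were lower with ATG in C3H.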

How the data were processed

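Lung RNA of 48 mice was sequenced as polyadenylated RNA, 3 mice in each of 16 groups. Per the labels and the study's methods, the authors aligned reads with GSNAP to mm10 and computed the deposited FPKM values with Cufflinks; SAMtools is also named in the submitters' processing notes. The annotation release and the strand setting are not given in the sources used here. FPKM are not counts, so no count test was run, and the absolute depth is unknown.

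Values were transformed as log2(FPKM + 1) and fitted with limma 3.58.1 (R 4.3.3) on group means, with moderated variances that follow mean expression, for genes of at least 1 FPKM in at least 3 of the mice fitted. P-values were adjusted by Benjamini-Hochberg over all genes tested, with a threshold of 0.05, and measure the spread between mice. The script was tested on simulated data. The genes named were the 10 members, up to 3 genes per list, comparison and direction with the smallest adjusted p, and the gene most like each member. Members and lists were chosen with earlier results of these data known. The within-strain ATG comparisons and the exclusion of C57BM 19 with C3HF 33 and of C3HM 1 with C3HM 3 were added after seeing the data. Alternatives were a pseudocount of 0.1, no filter, median ratio scaling, 1 fit of all 48 mice, and leaving out each mouse. Gene positions came from GENCODE M21 and start regions from RefSeq.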

Additional observations from a re-analysis of the deposited data

Results flagged for a closer look

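Of the 10 genes in 8 groups of strain, injection and air, 17 of 80 sets of 6 lungs had a lung far from the others by Dixon's test. The nominal rate of about 1 in 20 is no yardstick for that count. The same lungs recur over genes that moved together, each set pools both sexes, and FPKM were not transformed. C3HF 33, a saline lung in hyperoxia, was the high lung for Relb (30.1 FPKM), Rel (4.36), Nfkb1 (76.4), Nfkb2 (35.8), Nfkbia (321), Nfkbiz (25.4), Bcl3 (58.6) and Tnfaip3 (39.6). C57BF 48, an ATG lung in hyperoxia, was the high lung for Rel (2.25 FPKM), Nfkb1 (47.0), Nfkbia (245) and Bcl3 (37.8). C3HM 11 was the low lung with ATG in hyperoxia for Rel (1.59 FPKM) and Nfkbiz (7.36). The others were Relb in C57BM 24 (25.3 FPKM, high), Rela in C57BF 40 (44.7 FPKM, high) and Nfkbie in C3HF 30 (3.07 FPKM, low). C3HF 33 and C3HM 11 held the highest and the lowest neutrophil marker sums of the hyperoxia lungs, whose part in these values was not tested.

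Effects that differed between groups were those of ATG on Nfkbie between airs (0.74) and of ATG in hyperoxia between strains on Nfkbie (1.49), Nfkb2 (1.18) and Bcl3 (1.68), each tested as an interaction in limma, the last 3 after the pattern had been seen.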

How the results depend on the processing

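Of 140 effects of the 10 genes in the 14 comparisons, 32 were past the threshold. None of these changed sign under any alternative, and 7 lost the threshold under at least 1, namely hyperoxia in C3H for Nfkbia, hyperoxia in C57B for Nfkbie and Nfkbiz, strain in hyperoxia for Bcl3, ATG in C3H hyperoxia for Relb, and the strain difference of ATG for Nfkb2 and Bcl3. A further 35 effects, none past the threshold and none larger than 0.26, changed sign somewhere. The cause of the changes below was not tested. No paired analysis was possible because every mouse carries its own number. Absolute depth is unknown, so what it limits could not be ranked between genes.

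With no filter on low values, 40 genes were called for sex in room air (104 with the filter), 5 for ATG in room air (3), 57 for ATG in C57B hyperoxia (137) and 313 for ATG by air (470), 0 members for strain in hyperoxia (1) and 1 member for the strain difference of ATG (3). Median ratio scaling moved the median of all genes for hyperoxia by strain from 0.15 to 0.00. Under it 2 genes were called for hyperoxia by sex (6) and 68 for ATG in C57B, Nfkb1 stood at -0.017 for hyperoxia and Nfkbie at -0.049 for ATG in C57B, and the higher share of calls for ATG in hyperoxia fell from 71.1% to 41.5%.

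In 1 fit of all 48 mice, 2982 genes and 1 member were called for strain in room air, 1915 and 1 for sex in room air, 2994 and 1 for hyperoxia by strain, 457 and 2 for ATG in C57B, and 234 and 5 for the strain difference of ATG. It called 306 genes for hyperoxia by sex and 3 members for strain in hyperoxia. Without C57BM 19 and C3HF 33, 627 genes were called for hyperoxia by sex, 1 member for hyperoxia by strain, 3 members for strain in hyperoxia, 3 members for ATG in hyperoxia, 1327 genes and 8 members for ATG in C3H, 0 genes for ATG in C57B, and 287 genes and 8 members for the strain difference, and Nfkb1 stood at -0.18 for hyperoxia. Without C3HM 1 and C3HM 3, 30 genes were called for sex and 5 for ATG in room air, Nfkb1 stood at -0.0044 for hyperoxia, and Nfkbie at 0.053 for sex and -0.103 for ATG in room air.

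Leaving out each mouse in turn, calls ran from 20 to 3640 genes and 0 to 1 members for sex in room air, 1306 to 4021 and 0 to 1 for strain in room air, 2 to 1270 and 0 to 2 for hyperoxia by sex, 1400 to 3242 and 0 to 1 for hyperoxia by strain, 3 to 32 genes for ATG in room air and 243 to 1093 for ATG by air, with each highest gene count without C3HM 2, which leaves C3HM 1 and C3HM 3 as its group. They ran from 0 to 3 members for strain in hyperoxia, 166 to 861 genes and 2 to 5 members for ATG in C3H and 37 to 302 and 1 to 5 for the strain difference, each highest without C3HF 33. They ran from 443 to 1096 genes for ATG in hyperoxia and from 3 to 545 genes and 0 to 1 members for ATG in C57B, highest without C57BM 21 and, in C57B, lowest without C57BM 19. Nfkb1 ran from -0.093 to 0.114 for hyperoxia, and Nfkbie from -0.016 to 0.095 for ATG in room air and from -0.073 to 0.115 for ATG in C57B.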
